A study of Rattus norvegicus with 6 samples.

Results

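Transcripts of retinal endothelium, of its barrier junctions and transporters, and of the pericytes and smooth muscle cells around the vessels were followed in rat retinas after an injection into the vitreous. The 34 genes were taken from the count table by name: 16 genes of endothelial identity, 7 of barrier junctions and transport, 6 of pericytes and 5 of smooth muscle. They are 34 of the 34335 genes in the table, and receptors for VEGF and angiopoietins were left out. Robo4 is listed there under a locus identifier and was matched by its gene ID and RefSeq transcript. All animals were wild-type BN rats. The saline group received 2 µL of saline, and the DMP group received 2 µL of DMP, a cationic micelle that the labels name only by this code, at 10 mg/mL in H2O. Because the DMP was in water and the controls got saline, micelle and vehicle cannot be told apart. Each group held 3 libraries, numbered 30, 31 and 33, and the labels do not state whether each is a different animal. The p-values therefore describe spread among these libraries, possibly technical spread. No label gives age, sex or the time from injection to collection. The series title concerns choroidal neovascularization, the growth of vessels from the choroid toward the retina. The comparison asked whether transcripts of the vessel wall in the retina differed after DMP.

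Retinal capillaries form the inner blood-retina barrier. Their endothelial cells are sealed by tight junctions built from claudins and occludin on a scaffold of zonula occludens proteins. These cells lack fenestrae and move nutrients and drugs through dedicated transporters. Endothelial PDGF-B holds pericytes on the capillary through the receptor Pdgfrb, while arterioles carry contractile smooth muscle cells rich in smooth muscle actin and myosin. Choroidal capillaries, by contrast, are fenestrated.

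None of the vascular genes differed between the groups at the threshold used, an adjusted p under 0.05. Of 34 members 33 passed the filter on low counts, and 0 of these 33 were called in edgeR with Benjamini-Hochberg adjustment over all 18571 genes tested, where the share called among all genes was 0.0215%. DESeq2 and limma-voom also called 0 members, while calling 92 and 4 of all genes. At an unadjusted p under 0.05 there were 2 members, Ocln and Acta2, both lower in DMP, in each of the 3 tools. This is 6.06% of the members against 4.64% of all genes in either direction and 2.56% lower in DMP, and a count of 2 is too small to read against either share. Their median log2 fold change was 0.0048, against -0.00011 for all genes, with 17 members above 0 and 16 below. The groups did not overlap for 4 members, or 12.1%, against 9.3% of all genes: Podxl, Pdgfb and Mfsd2a were higher in every DMP library and Ocln lower. Among all genes 4.42% lay above and 4.88% below in this way. The members were chosen with earlier results of these data known, so these shares do not test them against all genes.

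The intervals, each for a single gene and not adjusted for the number of genes tested, limit how large a change could have gone unseen. The 95% interval lay within a 1.5-fold change in either direction for 17 of the 33 tested members, among them Pecam1, Cdh5, Vwf, Eng, Esam, Cldn5, Pdgfrb, Rgs5 and Myh11. It lay within a 2-fold change for 30. For Egfl7, Icam2 and Abcg2 it reached a 2-fold change or more, so such a change in these 3 was not excluded at this depth. The median SD within a group was 0.227 on the log2 CPM scale for the members and 0.130 for all genes tested. In whole retina, fewer vascular cells and less RNA per cell cannot be told apart.

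**Figure D1:**
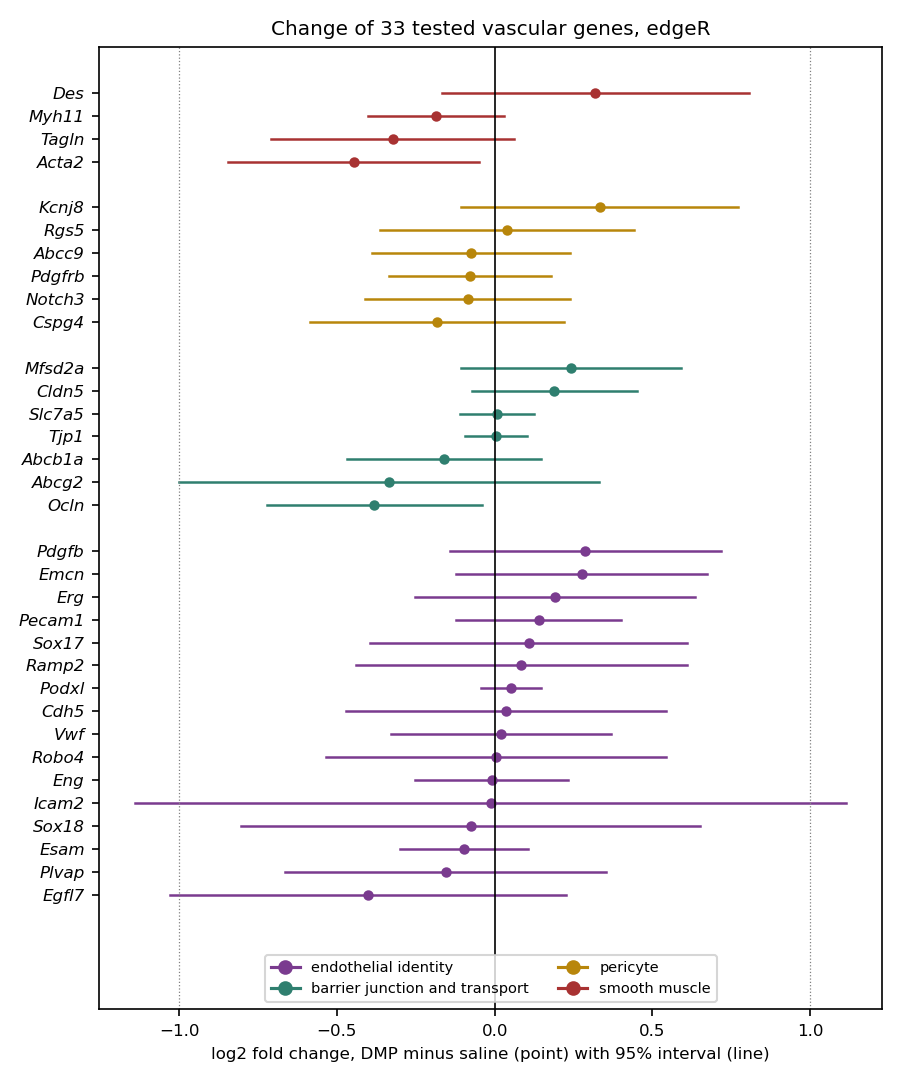
Log2 fold change (DMP minus saline, horizontal axis) of the 33 tested members by class; points are edgeR estimates, lines their 95% intervals, and dotted lines mark a 2-fold change. The intervals of Acta2 and Ocln lie below 0, and those of the other 31 include 0.

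Library size and whole-table behaviour bear on all values. Total counts ran from 47842234 to 53255925, and the members held 45659 to 52701 counts per library. On the leading principal component, with 28.1% of the variance, saline libraries lay at -23.4 to -17.9. DMP libraries 30, 31 and 33 lay at 53.0, 7.01 and -0.135. The groups did not overlap there, and DMP 30 also stood apart from the other 5 libraries. Rn18s, ribosomal RNA left after poly(A) selection, took 0.0121% to 0.0338% of counts in saline and 0.0439% to 0.159% in DMP. Its part in the results was not tested.

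Promoter sequences are shown for the 2 members of smallest p, Acta2 and Ocln, each with a member of its class whose estimate had the other sign, Des and Cldn5. They are the 250 bases before the annotated start, from RefSeq on build GRCr8, read in the direction of the gene. Acta2 lies on the minus strand (chr1:241172504-241172753), as do Ocln (chr2:33441199-33441448) and Cldn5 (chr11:95718599-95718848), while Des lies on the plus strand (chr9:84299376-84299625). Capitals mark a CArG box, the element bound by serum response factor, allowing at most 1 base other than A or T in its core, or a GC box (GGGCGG), both searched on either strand.
Acta2: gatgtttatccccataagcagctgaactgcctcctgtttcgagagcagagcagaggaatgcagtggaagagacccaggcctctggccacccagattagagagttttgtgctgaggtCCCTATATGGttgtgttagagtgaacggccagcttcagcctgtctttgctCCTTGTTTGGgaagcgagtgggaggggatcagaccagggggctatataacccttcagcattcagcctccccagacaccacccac
Des: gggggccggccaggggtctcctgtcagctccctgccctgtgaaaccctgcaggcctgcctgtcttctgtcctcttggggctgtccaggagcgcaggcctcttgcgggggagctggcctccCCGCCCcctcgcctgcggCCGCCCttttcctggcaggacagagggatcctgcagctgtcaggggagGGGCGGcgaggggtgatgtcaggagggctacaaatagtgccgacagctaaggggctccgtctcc
Ocln: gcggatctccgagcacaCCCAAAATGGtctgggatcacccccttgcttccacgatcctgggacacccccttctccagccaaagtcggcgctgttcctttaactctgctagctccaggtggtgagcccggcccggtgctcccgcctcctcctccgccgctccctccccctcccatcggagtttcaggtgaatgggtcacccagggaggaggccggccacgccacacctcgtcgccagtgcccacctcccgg
Cldn5: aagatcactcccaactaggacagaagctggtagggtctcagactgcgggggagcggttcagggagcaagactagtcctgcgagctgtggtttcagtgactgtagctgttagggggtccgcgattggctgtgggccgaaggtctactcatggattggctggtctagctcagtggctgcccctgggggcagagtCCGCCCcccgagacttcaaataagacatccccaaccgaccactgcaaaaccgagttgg
Acta2 held 2 CArG boxes, starting at -134 and -84 from the start site, and Ocln held 1 at -233. Such a match was present in 8.08% of all 33469 rat promoters of this length. A GC box was found in Des, 3 times, and in Cldn5 at -58, and 30.5% of all promoters held one. RefSeq promoters were matched for 22 of the 34 members, of which 3 held a CArG box (Acta2, Ocln and Pdgfb) and 14 a GC box. Tagln and Myh11 were not among the 22, and the estimate of Pdgfb was above 0 (log2 fold change 0.29). A match describes letters only and does not show binding.

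Levels between genes were compared on the authors' FPKM values, which are scaled to gene length. Tjp1 (165.6 FPKM), Podxl (127.4) and Slc7a5 (20.4) stood above all other members, whose highest was Cldn5 at 11.8. These 3 genes are also made by retinal neurons, glia or pigment epithelium, so their levels are not a measure of vessels alone. Endothelial identity genes had a median of 0.719 FPKM, barrier genes 2.61, pericyte genes 3.35 and smooth muscle genes 0.819. The length behind each FPKM value is not in the table. CPM divided by FPKM implies a length above the whole genomic span of the gene for 3 members, Sox17, Sox18 and Tagln, and for 8.78% of the 15303 genes above 1 CPM. The order of levels between genes is therefore uncertain, and all comparisons between groups rest on counts of the same gene.

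**Figure D2:**
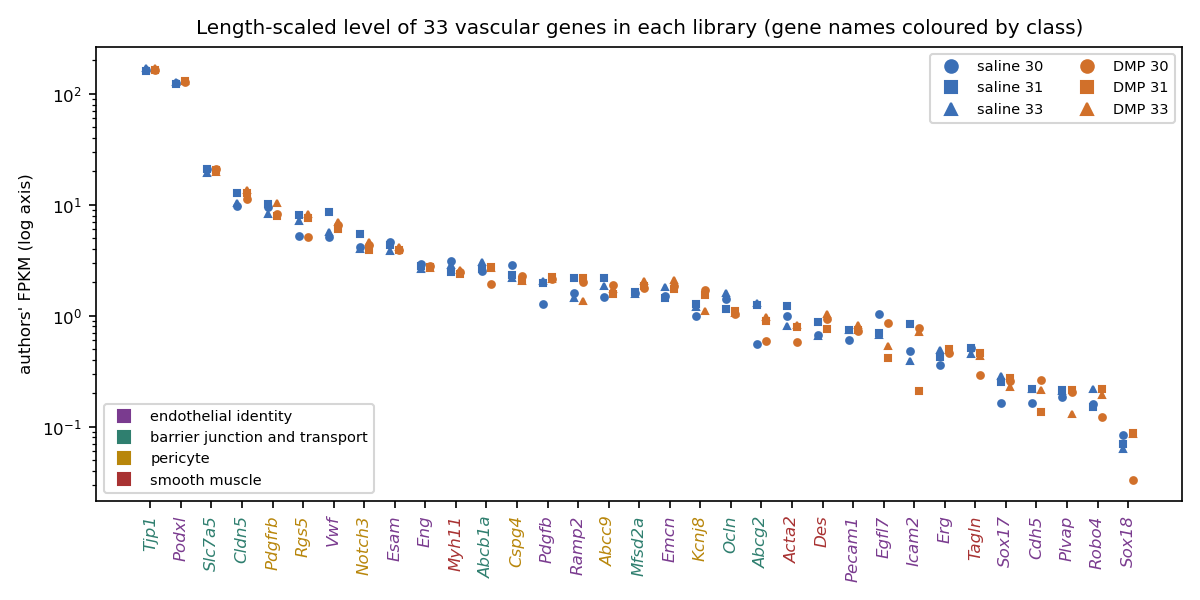
Authors' FPKM (vertical, log axis) of each member in each of the 6 libraries, ordered by mean; Cnn1 is not drawn because it is at 0 in 3 libraries. Saline and DMP points lie close together for the abundant genes and spread most for those under 1 FPKM.

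The defining endothelial genes were present in every library, and their sum was 49.2 to 54.8 CPM in saline and 50.3 to 55.2 in DMP. CPM is the count scaled to the TMM-adjusted library size. Pecam1, an adhesion molecule at contacts between endothelial cells (mRatBN7.2 chromosome 10, 91590521 to 91652279), was at 8.25, 10.1 and 10.0 CPM in saline libraries 30, 31 and 33 and at 10.0, 10.1 and 11.2 in DMP libraries 30, 31 and 33. Its groups overlapped, and its log2 fold change was 0.14 (SE 0.119, 95% interval -0.12 to 0.40). Cdh5, the cadherin of endothelial adherens junctions, was at 3.50, 4.68 and 4.63 CPM in saline and 5.69, 2.93 and 4.51 in DMP. DMP 30 thus held the highest and DMP 31 the lowest value of all 6 libraries, with a log2 fold change of 0.04 (SE 0.229). Esam, an adhesion molecule of endothelial tight junctions, was at 20.9, 19.5 and 17.1 CPM in saline and 17.7, 17.5 and 18.6 in DMP. All 3 DMP values lay inside the saline range (log2 fold change -0.10, SE 0.0917).

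Erg, a transcription factor that maintains endothelial identity, was at 1.61, 1.92 and 2.17 CPM in saline and 2.08, 2.27 and 2.17 in DMP, with saline 30 the lowest (log2 fold change 0.19, SE 0.202). The SOX factors of endothelium were as low, Sox17 at 2.29 ± 0.601 against 2.47 ± 0.227 CPM in DMP (mean ± SD, n = 3 here and for all such values) and Sox18 at 1.75 ± 0.269 against 1.67 ± 0.733. DMP 30 held the lowest Sox18 value, 0.821 CPM. Egfl7, a secreted endothelial protein, had the largest endothelial difference in size and was at 3.46, 2.37 and 2.23 CPM in saline and 2.90, 1.39 and 1.80 in DMP. The groups overlapped, since DMP 30 exceeded saline 31 and 33, and the log2 fold change was -0.40 (SE 0.285, 95% interval -1.03 to 0.23). It was -0.75 without DMP 30 (unadjusted p = 0.0176, edgeR adjusted p = 0.908), -0.18 without saline 30 and -0.19 without DMP 31.

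Surface proteins of endothelium were measured alongside. Emcn, a sialomucin of capillaries and veins, averaged 2.43 ± 0.282 CPM in saline and 2.94 ± 0.259 in DMP. Eng, a co-receptor for ligands of the TGF-beta family, averaged 8.82 ± 0.523 and 8.76 ± 0.270. Icam2, an endothelial ligand of leukocyte integrins, had the lowest CPM of the tested members, at 0.559 ± 0.213 and 0.553 ± 0.299. Ramp2, the receptor partner for adrenomedullin, averaged 2.46 ± 0.545 and 2.61 ± 0.629, and Robo4, an endothelial roundabout receptor, at 2.42 ± 0.473 and 2.44 ± 0.664. Robo4 overlaps Robo3 on the opposite strand, which had a mean count of 613.7, and Icam2 likewise overlaps Prr29, with 49.0. The libraries were dUTP-stranded, but no label says whether counting used strand. Whether reads of such a pair were counted apart is therefore not known. For Emcn, Eng, Icam2, Ramp2 and Robo4 the groups overlapped. Plvap, which forms the diaphragms of fenestrated endothelium such as that of the choroid, averaged 2.25 ± 0.177 CPM in saline and 2.02 ± 0.515 in DMP, with overlapping groups.

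Vwf, the clotting glycoprotein stored in endothelial granules (chromosome 4, 158360152 to 158491539), was at 37.9, 64.3 and 41.8 CPM in saline and 49.7, 45.1 and 51.2 in DMP. Saline 31 stood above the other 5 libraries, and the log2 fold change over all libraries was 0.02 (SE 0.158). It was 0.29 without saline 31 (unadjusted p = 0.00696, edgeR adjusted p = 0.615), and its sign turned without saline 30 (-0.13), saline 33 (-0.07) or DMP 33 (-0.02). Podxl, a sialomucin of the vessel lumen, was at 311.6, 303.8 and 317.2 CPM in saline and 322.3, 321.8 and 322.4 in DMP. The groups did not overlap, but the difference was a log2 fold change of 0.05 (SE 0.0437, 95% interval -0.04 to 0.15). Pdgfb, the ligand that recruits pericytes, was at 2.22, 3.37 and 3.52 CPM in saline and 3.69, 3.81 and 3.63 in DMP. Here too every DMP library lay above saline, by a margin that was small beside the low value of saline 30 (log2 fold change 0.29, SE 0.195, 95% interval -0.14 to 0.72). The 16 endothelial identity genes had a median log2 fold change of 0.03, with 10 above 0 and 6 below. It was 0.13 without saline 31.

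Among barrier genes the junction proteins did not share a direction. Cldn5, the main claudin of barrier endothelium (chromosome 11, 82212822 to 82214248), was at 12.3, 16.2 and 13.0 CPM in saline and 14.3, 16.2 and 17.0 in DMP, overlapping through saline 31. Its log2 fold change was 0.19 (SE 0.119, 95% interval -0.07 to 0.45), 0.31 without saline 31 (unadjusted p = 0.0204, edgeR adjusted p = 0.918) and 0.11 without saline 30 (unadjusted p = 0.406). Ocln, the occludin of tight junctions in endothelium and epithelium (chromosome 2, 31657217 to 31707466), was at 5.57, 4.53 and 6.21 CPM in saline and 4.11, 4.32 and 4.10 in DMP. Every DMP value lay below every saline value, with saline 31 nearest (log2 fold change -0.38, SE 0.155, 95% interval -0.72 to -0.04, unadjusted p = 0.0320, edgeR adjusted p = 0.935). The unadjusted p of Ocln was under 0.05 in 9 of 14 alternatives, of which 8 used all 6 libraries. Leaving out any library other than saline 31 took it over 0.05, to 0.0715 without saline 30, 0.125 without saline 33, 0.0673 without DMP 30, 0.0515 without DMP 31 and 0.0707 without DMP 33. Tjp1, the zonula occludens scaffold, was at 268.9, 265.1 and 280.5 CPM in saline and 270.8, 270.6 and 275.9 in DMP. The DMP libraries lay inside the saline range, with a log2 fold change of 0.01 (SE 0.0448).

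None of the 4 transporters was called by edgeR. Mfsd2a, a lipid transporter that restrains transcytosis in barrier endothelium as shown in mice, was at 2.95, 3.00 and 2.81 CPM in saline and 3.27, 3.41 and 3.69 in DMP. All DMP libraries were above all saline libraries (log2 fold change 0.24, SE 0.158, 95% interval -0.11 to 0.59, unadjusted p = 0.153). A locus on the opposite strand overlaps this gene. Slc7a5, a carrier of large neutral amino acids, was at 138.8, 138.2 and 126.4 CPM in saline and 141.4, 134.5 and 129.5 in DMP, overlapping, with a log2 fold change of 0.01 (SE 0.0538). Abcb1a, the efflux pump P-glycoprotein, was at 11.1, 11.5 and 13.2 CPM in saline and 8.52, 11.9 and 11.7 in DMP. DMP 30 was the lowest library and the groups overlapped (log2 fold change -0.16, SE 0.140). Its count is uncertain, because Abcb1b is a close paralog and Rundc3b, with a mean count of 1297.5, overlaps it on the opposite strand. Abcg2, another efflux pump, was at 1.59, 3.52 and 3.58 CPM in saline and 1.70, 2.50 and 2.70 in DMP. Both libraries numbered 30 were low, and the log2 fold change was -0.34 (SE 0.302), or -0.63 without saline 30 (unadjusted p = 0.0217, edgeR adjusted p = 0.99996). It lay between -0.17 and -0.16 without saline 31, saline 33 or DMP 30. The class had a median of 0.0051, with 4 members above 0 and 3 below.

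Pericyte genes were split around 0. Pdgfrb, the receptor for PDGF-B (chromosome 18, 54500002 to 54538843), was at 21.0, 22.4 and 18.0 CPM in saline and 18.3, 17.3 and 22.6 in DMP, with overlapping groups (log2 fold change -0.08, SE 0.116, 95% interval -0.33 to 0.18). Rgs5, a regulator of G-protein signalling abundant in pericytes, was at 10.4, 16.0 and 13.9 CPM in saline and 10.3, 15.1 and 16.1 in DMP. Both libraries numbered 30 were again the lowest (log2 fold change 0.04, SE 0.183). Cspg4, the NG2 proteoglycan of pericytes and of oligodendrocyte precursors, was at 3.58, 2.89 and 2.67 CPM in saline and 2.90, 2.63 and 2.52 in DMP, overlapping through DMP 30 (log2 fold change -0.18, SE 0.182). Notch3, the Notch receptor of mural cells, was at 7.89, 10.4 and 7.40 CPM in saline and 8.27, 7.39 and 8.58 in DMP, saline 31 being the highest (log2 fold change -0.09, SE 0.147).

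Kcnj8 and Abcc9 encode the pore and the sulfonylurea receptor subunit of the ATP-sensitive potassium channel of mural cells and lie 16.0 kb apart on chromosome 4. Kcnj8 (175508908 to 175515829) was at 2.58, 3.24 and 3.02 CPM in saline and 4.41, 3.92 and 2.81 in DMP. DMP 30 and 31 were above all saline libraries, while DMP 33 was inside their range (log2 fold change 0.33, SE 0.199, 95% interval -0.11 to 0.77, unadjusted p = 0.124), with 0.50 without DMP 33 (unadjusted p = 0.0259, edgeR adjusted p = 0.910) and 0.19 without DMP 30 (unadjusted p = 0.400). Abcc9 (175531854 to 175655548) was at 11.1, 16.6 and 13.9 CPM in saline and 14.5, 11.8 and 13.1 in DMP, all DMP values within the saline range (log2 fold change -0.08, SE 0.143). The 6 pericyte genes had a median log2 fold change of -0.08, with 2 above 0 and 4 below, and it was 0.07 without saline 31.

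**Figure D3:**
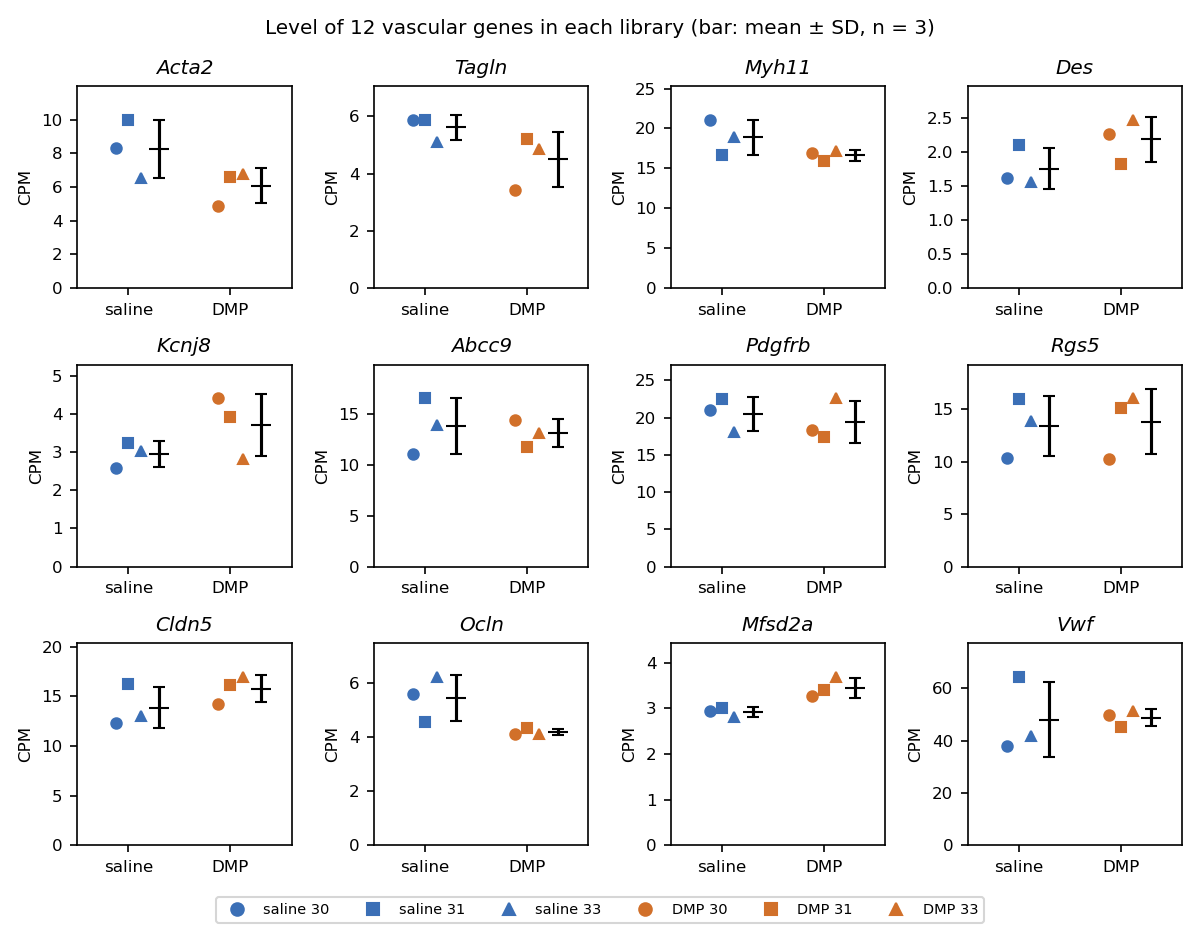
CPM (vertical axis from 0) of 12 members in each library; symbols give the library number, colours the group, and black bars the mean ± SD of 3 libraries. Acta2 and Myh11 overlap between groups, Ocln and Mfsd2a do not overlap, and saline 31 is the highest point for Vwf, Abcc9 and Acta2.

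Contractile smooth muscle genes were the class with the lowest median. Acta2, smooth muscle actin (chromosome 1, 231746527 to 231759307), was at 8.29, 9.99 and 6.54 CPM in saline and 4.87, 6.59 and 6.76 in DMP. DMP 31 and 33 lay just above saline 33, so the groups overlapped (log2 fold change -0.45, SE 0.180, 95% interval -0.84 to -0.05, unadjusted p = 0.0309, edgeR adjusted p = 0.920). The unadjusted p was under 0.05 in 11 of 14 alternatives, the exceptions being without saline 30 (0.0601), saline 31 (0.150) or DMP 30 (0.113). Actin genes are close paralogs, so reads may have been shared among them. Tagln, a calponin-like protein bound to actin filaments, was at 5.89, 5.87 and 5.12 CPM in saline and 3.42, 5.22 and 4.86 in DMP, with DMP 30 the lowest and DMP 31 above saline 33 (log2 fold change -0.32, SE 0.175). Myh11, the smooth muscle myosin heavy chain, was at 21.1, 16.7 and 18.9 CPM in saline and 16.9, 15.9 and 17.2 in DMP, overlapping through saline 31 (log2 fold change -0.19, SE 0.0978).

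Des, the muscle intermediate filament desmin that pericytes also make, was at 1.61, 2.11 and 1.56 CPM in saline and 2.27, 1.83 and 2.48 in DMP. It was the member of this class with an estimate above 0 (log2 fold change 0.32, SE 0.221), and its groups overlapped. A locus with a mean count of 30.0 overlaps Des on the opposite strand. Cnn1, the calponin of smooth muscle, had counts of 0, 18 and 0 in saline and 0, 15 and 4 in DMP and was too low to test. The 4 tested members had a median log2 fold change of -0.25, with 3 below 0 and 1 above, and 1 of the 4 had an unadjusted p under 0.05, a count too small to read against 4.64%.

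Marker sums of the stromal, ciliary and macrophage lists did not overlap between the groups, while the other marker sums did. The summed fibroblast and stromal list, 10 genes, was at 136.0 to 165.4 CPM in saline and 40.6 to 95.0 in DMP, and the 9 listed ciliary and iris epithelium genes in the table were at 296 to 359.9 against 233.4 to 272.7. The 12 microglia and macrophage genes were at 94.3 to 130.0 CPM in saline and 139.9 to 196.3 in DMP. The 10 pigment cell genes were at 333.8 to 436.7 and 299.7 to 361.1, and the 12 lens genes at 21.7 to 44.0 and 6.88 to 39.3. These sums overlapped, but 4 of 10 tested pigment cell genes and 5 of 10 tested lens genes were lower in DMP at an unadjusted edgeR p under 0.05. In both lists 0 genes were higher at that p and 0 were called, and 2.56% of all genes were lower at it. Rlbp1 stands in both the pigment cell and the Müller glia lists. Dcn, Lum and Mfap5 of the stromal list, Cpamd8 and Msx1 of the ciliary list and Cryaa, Crygb, Mip and Lim2 of the lens list were at 0 in at least 1 library. Stroma of the iris, ciliary body and choroid holds smooth muscle and fenestrated vessels, and the part of such tissue in the Acta2, Tagln and Myh11 values was not tested. Erythrocyte genes were at 68.7 to 122.8 CPM in saline and 65.7 to 112.3 in DMP. Skeletal muscle genes were at 50.1 to 56.5 and 52.7 to 56.8, with Myh4 and Tnnc2 at 0 in at least 1 library. Sums of retinal markers overlapped, with rod and cone genes at 55690.8 to 59424.3 CPM in saline and 55441.4 to 58525.6 in DMP and Müller glia and astrocyte genes at 3418.4 to 3564.2 and 3303.6 to 3459.5. Within the latter list Vim, a filament protein of glia and of stromal cells named here after its values were seen, averaged 137.3 ± 5.34 CPM in saline and 105.5 ± 5.94 in DMP, without overlap (log2 fold change -0.38, edgeR adjusted p = 0.0582). The defining pericyte and smooth muscle genes summed to 74.3 to 85.0 CPM in saline and 69.2 to 78.5 in DMP, with all 6 above 0 in every library.

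**Figure D4:**
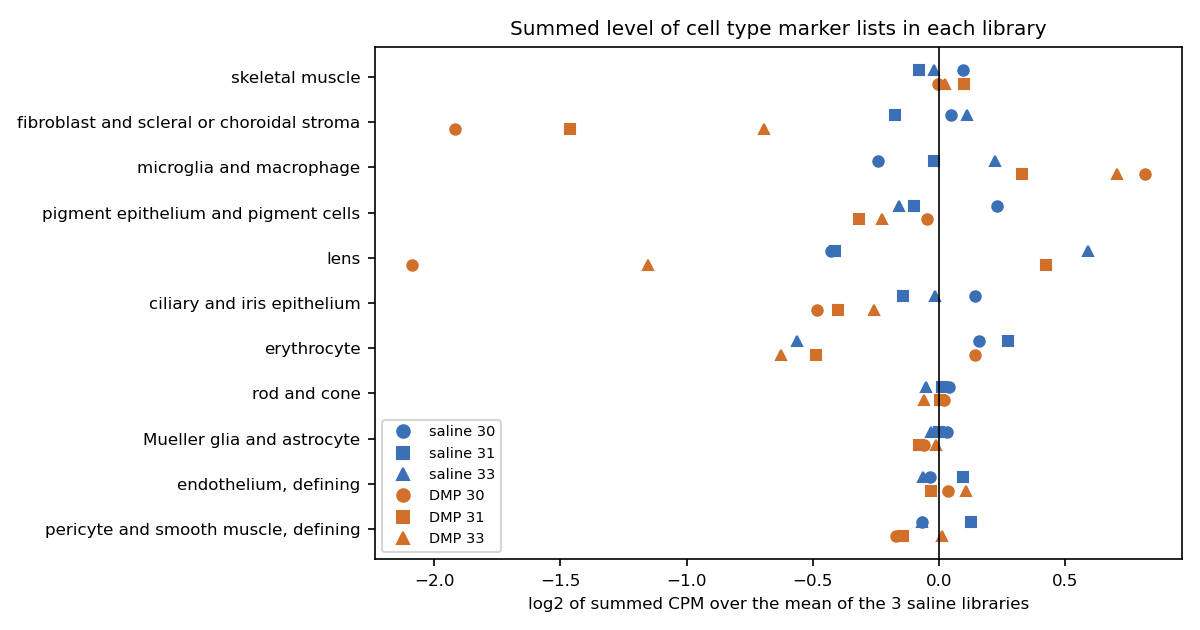
Log2 of the summed CPM of each marker list over its saline mean (horizontal axis), by library; symbols give the library number and colours the group. The stromal, ciliary and macrophage sums separate the groups, while the endothelial and retinal sums do not.

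Further vascular genes were read from 9 lists, 162 tested genes outside the members with each gene counted once. In edgeR 0 of them were called, and 20 had an unadjusted p under 0.05, 7 higher and 13 lower in DMP. These are 12.3% of the list genes against 4.64% of all genes, and the median log2 fold change of the 162 genes was -0.03. The lists were chosen with earlier results of these data known. Neither this share nor the counts by list below test these genes against all genes. For the counts by list that follow, 2.08% of all genes were higher and 2.56% lower at that p, and lists of this size hold too few genes to read closely. Mcam stands in the endothelial and pericyte lists, Jam3 in the junction and adhesion lists, and Gja4 in the mural signalling and pericyte lists. Each of them is counted in both of its lists. Sox17, a member, is also counted in the Norrin and Wnt list. Of 32 other endothelial regulators and surface genes 5 were higher and 2 lower at that unadjusted p. Mecom, a transcription factor of arterial endothelium and of blood stem cells, averaged 4.94 ± 1.17 CPM in saline and 2.69 ± 0.872 in DMP. Lyl1, a transcription factor of endothelium and blood cells, averaged 0.696 ± 0.0605 and 1.39 ± 0.283 CPM. Blood-derived cells also make Lyl1, and the macrophage sum above was higher in DMP, but its part was not tested.

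Of 20 other tight and adherens junction genes 19 had estimates below 0, where 9293 of all 18571 genes did, and 3 of them had an unadjusted p under 0.05, where 2.56% of all genes were lower at that p. Cldn2, a pore-forming claudin of leaky epithelia, averaged 11.8 ± 1.98 CPM in saline and 4.58 ± 2.55 in DMP (log2 fold change -1.36, SE 0.301, edgeR adjusted p = 0.200). Cgnl1, a cingulin-like protein of the junction plaque, averaged 50.4 ± 0.153 and 43.6 ± 0.202 (log2 fold change -0.21, SE 0.0546, edgeR adjusted p = 0.347). Of 22 other barrier transporters 2 were lower at an unadjusted p under 0.05. Besides barrier vessels, epithelia make Slc22a8, an organic anion transporter, which averaged 8.52 ± 2.22 CPM in saline and 3.41 ± 1.70 in DMP. Slc2a1, the glucose transporter of barrier endothelium and of many retinal cells, averaged 164.8 ± 13.4 and 141.8 ± 1.33 (log2 fold change -0.22, SE 0.0585, edgeR adjusted p = 0.396). The groups did not overlap for these 4 genes, and the ciliary epithelium sum given above was also lower in DMP. Its part in these values was not tested.

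Of 13 tested genes of Norrin and Wnt signalling, the pathway that builds and keeps the retinal barrier, 1 had an unadjusted p under 0.05. It was the co-receptor Lrp5, at 18.5 ± 1.02 CPM in saline and 16.2 ± 0.613 in DMP, while Lef1, a transcription factor and target of the pathway, averaged 1.13 ± 0.343 and 1.75 ± 0.343. Neither group pair overlapped, in opposite directions. Of 7 tested adhesion molecules for leukocytes 1 was below that p: Vcam1, at 23.4 ± 4.44 CPM in saline and 17.2 ± 1.07 in DMP (edgeR adjusted p = 0.474). Icam1, another inducible adhesion molecule, averaged 2.27 ± 0.475 and 2.84 ± 0.338, with overlapping groups. Of 8 genes of caveolae, the vesicles of transcytosis, 0 were under an unadjusted p of 0.05, and the smallest p belonged to Cavin2 (2.66 ± 0.397 against 1.9 ± 0.557 CPM) and Cavin3 (3.11 ± 0.567 against 2.44 ± 0.302).

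Of 25 genes of PDGF-B, Notch and TGF-beta signalling to mural cells, 1 had an unadjusted p under 0.05. Hey2, a transcriptional target of Notch, averaged 7.83 ± 0.319 CPM in saline and 9.81 ± 0.372 in DMP, without overlap (log2 fold change 0.33, SE 0.108, edgeR adjusted p = 0.690). Pdgfa averaged 4.95 ± 0.718 and 3.97 ± 0.638, with overlap. Of 16 other pericyte genes 2 were higher at that p, the adhesion molecule Mcam (13.3 ± 1.38 against 16.6 ± 2.65 CPM) and the metalloreductase Steap4 (1.73 ± 0.136 against 2.46 ± 0.434). Of 23 other contractile smooth muscle genes 4 were lower and 0 higher at that p, with a list median of -0.13 against -0.00011 for all genes. Estimates were below 0 for 14 of the 23 and above 0 for 9. The groups did not overlap for 2 genes with DMP above and 5 with DMP below, where 4.42% and 4.88% of all genes did so. Synpo2, an actin-bundling protein of muscle, averaged 1.36 ± 0.298 CPM in saline and 0.740 ± 0.0394 in DMP, and Flna, a filamin that many cells make, at 115.2 ± 5.09 and 104.4 ± 2.44. Both were lower in each DMP library than in each saline library, and none of the 4 was called.

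**Figure D5:**
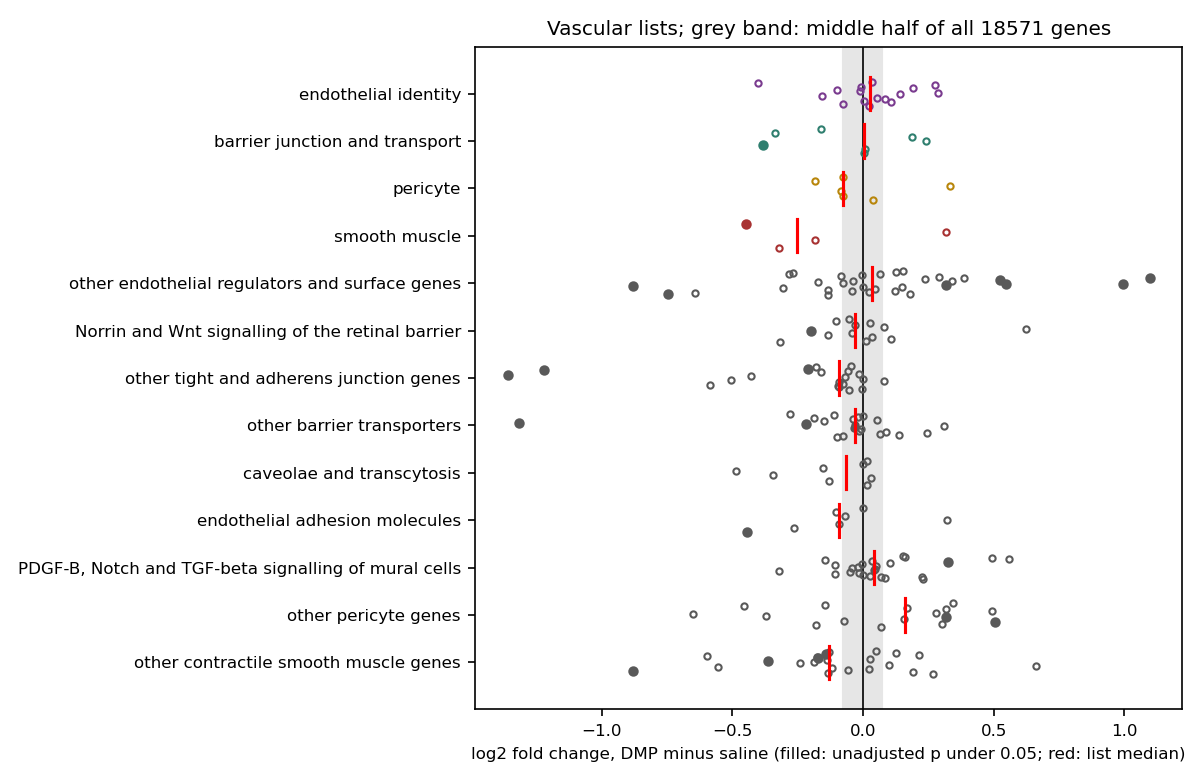
Log2 fold change (DMP minus saline) of each tested gene in the 4 member classes and the 9 further lists; filled points have an unadjusted p under 0.05, red bars are list medians and the grey band holds the middle 50% of all genes. Contractile smooth muscle lists have medians of -0.25 and -0.13, and the endothelial identity median is 0.03.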

How the data were processed

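Estimated counts per gene were deposited by the authors as whole numbers for 6 retinal libraries, together with their FPKM values. Per the labels' protocols, mRNA was selected from 5 µg of total RNA with oligo(dT) beads, made into dUTP-stranded libraries and amplified for 8 PCR cycles. The submitters' processing notes name cutadapt 1.9, FastQC and build mRatBN7.2. Aligner and counter were not given in the sources used here. In the deposited counts 673 to 741 genes per library had a value of 4, against 301 to 325 at 3 and 218 to 254 at 5, so 4 may stand for about 1 fragment and low genes are less certain than they look.

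Genes were kept by the default edgeR filter (minimum count 10, total 15), scaled by TMM and tested, DMP against saline, by quasi-likelihood (edgeR 4.0.16, R 4.3.3; two-sided) over the 6 libraries, fitting group alone, with Benjamini-Hochberg adjustment. SE is the absolute log2 fold change over the square root of F. Alternatives were other scalings and filters, DESeq2 1.42.0, limma-voom 3.58.1, a block for library number, each library left out, and counts divided by 4, the last added after seeing the data. Members are described in full. From each further list the 2 genes of smallest p with a mean of at least 1 CPM are named, and marker lists are summed. Members and lists were chosen with earlier results of these data known. Chromosome names come from a RefSeq table of GRCr8. Intervals do not cover amplification bias shared by all libraries.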

Additional observations from a re-analysis of the deposited data

How the results depend on the processing

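No alternative called any of the 33 tested members. Among 460 member values under 14 alternatives the lowest adjusted p was 0.451, for Acta2 without saline 33, and 19 members kept their sign throughout while 14 changed it in 32 values, none of them called. Over all genes, edgeR called 4. This was 13 with the stricter filter, 92 with DESeq2, 45 with the replicate block and 38 with counts divided by 4, and ran from 0 (without DMP 31) to 81 (without DMP 33) when a library was left out. It was 2 without saline 33 and 9 without DMP 30. Whether the numbers 30, 31 and 33 pair the libraries is not stated, and the values did not settle it. Deviations of same-numbered libraries correlated at 0.0281 to 0.0659, and those of other pairs at -0.0794 to 0.0463. Of 6 libraries 4 correlated best with their own number. The block changed no member's call. Members with an unadjusted p under 0.05 numbered 2, and 1 to 4 with a library left out: 1 without saline 30, saline 33 or DMP 30, and 4 without saline 31 (Vwf, Myh11, Cldn5 and Ocln). Leaving out libraries moved the median log2 fold change from -0.0042 to 0.13 for endothelial identity, -0.12 to 0.0737 for pericyte, -0.38 to -0.16 for smooth muscle and -0.04 to 0.01 for barrier genes, and the pericyte median was above 0 without saline 31 alone. The cause was not tested. With 3 libraries per group and low counts, changes well beyond 1.5-fold could also miss the adjusted threshold. Among the further list genes, Cldn2 at a log2 fold change of -1.36 had an edgeR adjusted p of 0.200. Lyl1, at 0.995, had one of 0.474. That 0 members were called therefore does not exclude changes of such a size by itself.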

Other observations

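Ratios of members within a library, chosen after their values were seen and given without a test, remove scaling between libraries. Acta2 over Des was 5.13, 4.74 and 4.2 in saline (30, 31, 33) and 2.14, 3.60 and 2.72 in DMP, without overlap, but this divides the lowest estimate of the class by its only positive one. Acta2 over Pdgfrb was 0.394, 0.445 and 0.363 in saline and 0.267, 0.380 and 0.299 in DMP, with overlap through DMP 31. Ocln over Cldn5 was 0.451, 0.279 and 0.477 in saline and 0.288, 0.267 and 0.242 in DMP, overlapping through saline 31. Kcnj8 over Abcc9 was 0.233, 0.196 and 0.217 in saline and 0.305, 0.332 and 0.214 in DMP, with DMP 33 inside the saline range.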
